A study of Rattus norvegicus with 6 samples.

Results

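Collagen chain genes encode the polypeptide chains that wind into the triple helices of the collagens. They were taken as all genes of the deposited table whose symbol consists of Col, a type number, the letter a and a chain number, which gave 44 of 30957 genes. The 44 rows carried 43 symbols, since Col23a1 was listed 2 times with different identifiers. By the textbook type of the chain, 11 were fibrillar, 7 belonged to basement membranes, and 26 were other collagens such as the beaded filament, network, fibril-associated and transmembrane types.

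The measurements came from RNA-seq of sciatic nerves of adult male Sprague-Dawley rats. In 3 samples the nerve had been crushed, and the methods place collection of the proximal stump at 4 days postinjury (dpi), while the labels give no time point. The other 3 samples were intact nerves of the opposite side and served as controls, so both groups came from injured animals and no nerve of an uninjured rat was compared. The design text calls the samples biological replicates, but which rat each nerve came from is not given, nor whether a crushed and an intact nerve with the same number share a rat. The design text and the methods differ on the side of the lesion, and the methods describe removal of linear RNA with RNase R, which the labels do not mention. The counts on genes summed to between 24844371 and 27139360 per nerve, and 3 counts, taken as the lowest level that can be told from 0, were worth 0.11 to 0.121 normalized CPM (CPM, the counts scaled to a library of fixed size).

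In a peripheral nerve, collagen forms the connective tissue sheaths of the epineurium, perineurium and endoneurium and part of the basement membrane that surrounds each Schwann cell unit. Fibrillar chains assemble into long fibrils, type IV chains into the sheet-like network of basement membranes, and fibril-associated collagens bind along fibrils without forming them. Some collagens are built from 1 kind of chain and others from several: type I joins Col1a1 with Col1a2, type V joins Col5a1 with Col5a2, and type VI joins Col6a1 and Col6a2 with another kind of chain, usually Col6a3.

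Many defining markers of the cells of a nerve were at or near 0 in all 6 samples, while other markers were well counted. Of 10 Schwann cell markers, 4 had more than 3 counts in every nerve, and the defining genes Sox10, Mbp and S100b had between 0 and 3 counts in any nerve, with Mag and Cdh19 at 0 throughout. Pmp22, also a Schwann cell marker, had 821 to 968 counts and Erbb3 89 to 135. The macrophage genes Ptprc, Cd163 and Adgre1 and the fibroblast matrix genes Dcn, Lum and Postn were at 0 as well. The macrophage list's Cd68 had 29 to 52 counts and Csf1r 18 to 29. The fibroblast list's Fbn1, Thy1 and Pdgfra had 19293 to 33826, 2431 to 3372 and 1114 to 1525 counts. The perineurial markers Slc2a1 and Itgb4 had 7743 to 9535 and 2824 to 3488 counts, while Cldn1, on the same list, had 21 to 43. The proliferation gene Mki67 had between 37037 and 43837. The collagen values are those of the samples labelled crushed and intact nerve.

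Transcript levels differed widely between the chains. On the FPKM scale, which divides counts by gene length and library size and so allows genes to be compared, Col5a2, a chain of the type V fibrils that set fibril diameter, stood highest at 145, 139 and 143 in the intact and 135, 137 and 138 in the crushed nerves. All crushed nerves were below all intact nerves by a small margin, and by its mean FPKM of 139.5 the gene ranked 538 of 30957. Col8a1, a short network-forming chain known from the matrix under endothelium and in vessel walls, followed with a mean of 75.8 FPKM and rank 1178. Col5a1, the partner of Col5a2, had a mean of 33.4 FPKM, the fibril-associated Col16a1 21.2 and the basement membrane chain Col4a5 14.2. These 5 chains together made up between 85.1% and 85.7% of the summed FPKM of all collagen chains in each of the 6 nerves. Depth is not the limit for them, since the lowest count among the 5 chains was 2145, for Col4a5 in crushed nerve 3.

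**Figure D1:**
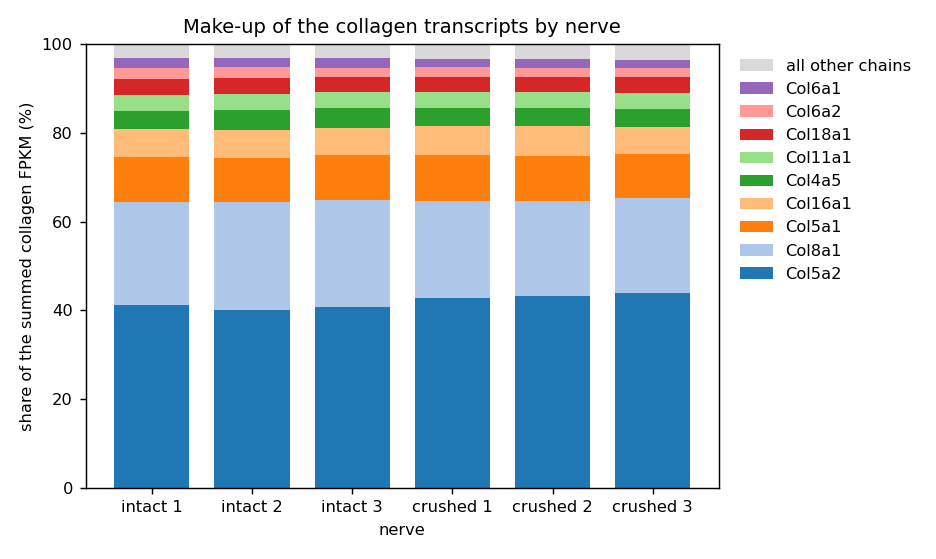
Each bar is 1 nerve, and its segments give the share (%) of the summed collagen FPKM held by each chain, with the remaining chains in grey. Col5a2 held 40.0% to 43.8% and Col8a1 21.4% to 24.3% in every nerve, while Col1a1 held 1.0% or less.

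The stretches of DNA before the starts of the 2 leading chains are shown because these chains carry most of the collagen signal, together with the short stretch between the starts of Col4a1 and Col4a2, a pair of chains with no counts. They are taken from RefSeq on the GRCr8 assembly, which is not the build of the counts, and run 5′ to 3′. Capitals mark the letters GGGCGG, the core of a GC box, or their reverse complement CCGCCC. Col5a2 lies on the minus strand (chr9:55090152-55090401) and Col8a1 on the plus strand (chr11:56246532-56246781), each with the 250 bases before its start. The starts of Col4a1, on the plus strand, and Col4a2, on the minus strand, are 76 bases apart (chr16:84885521-84885596, plus strand shown).
Col5a2: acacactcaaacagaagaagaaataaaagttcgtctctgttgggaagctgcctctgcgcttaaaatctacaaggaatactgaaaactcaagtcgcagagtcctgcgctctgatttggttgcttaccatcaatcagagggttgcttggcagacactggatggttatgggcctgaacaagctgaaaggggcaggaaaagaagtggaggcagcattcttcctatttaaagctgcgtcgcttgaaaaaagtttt
Col8a1: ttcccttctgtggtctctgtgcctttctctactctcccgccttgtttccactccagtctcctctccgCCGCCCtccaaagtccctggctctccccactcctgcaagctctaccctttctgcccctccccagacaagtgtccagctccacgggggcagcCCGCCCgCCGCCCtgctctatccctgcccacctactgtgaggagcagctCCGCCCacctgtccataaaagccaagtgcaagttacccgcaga
Col4a1 and Col4a2, between the starts: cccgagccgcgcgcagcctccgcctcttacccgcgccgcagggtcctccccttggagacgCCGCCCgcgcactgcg

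The Col8a1 stretch held 4 GGGCGG matches and had a GC content of 62.0%, the Col5a2 stretch held 0 and had 44.8%, and the stretch between Col4a1 and Col4a2 held 1 and had 78.9%. None of the 3 held TATAAA, the letters of a TATA box, or CCAAT. RefSeq windows were found for 34 of the 43 symbols, but not for Col1a1, Col3a1, Col6a2 or Col12a1. Col24a1 and Col6a5 had more than 1 window, which gave 37 windows of 250 bases before a start. Searched on both strands, GGGCGG was in 51.4% of them and in 30.5% of all 33469 windows, TATAAA in 10.8% and 12.9%, and CCAAT in 32.4% and 34.0%. A match of letters describes the window only and is not a measured binding site.

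Below the leading chains came Col11a1 with a mean of 12 FPKM and Col18a1 with 11.6, and their ranges overlapped in the intact nerves, while Col11a1 was the higher in all crushed nerves. The type VI chains Col6a2 and Col6a1, at 7.45 and 6.79 FPKM, likewise overlapped in the intact nerves, and Col6a2 was the higher in all crushed nerves. Col1a1, the major chain of type I collagen, which is the main fibrillar collagen of most connective tissues, stood at 2.78 FPKM. Col5a3, Col12a1 and Col27a1 were at 2.29, 2.04 and 1.99 FPKM, and in the crushed nerves the ranges of Col1a1, Col12a1 and Col27a1 overlapped, while Col5a3 overlapped with Col12a1 and lay above Col1a1 and Col27a1. The remaining 6 tested chains, Col20a1, Col9a3, Col11a2, Col17a1, Col3a1 and Col4a4, had means between 0.0886 and 0.604 FPKM.

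**Figure D2:**
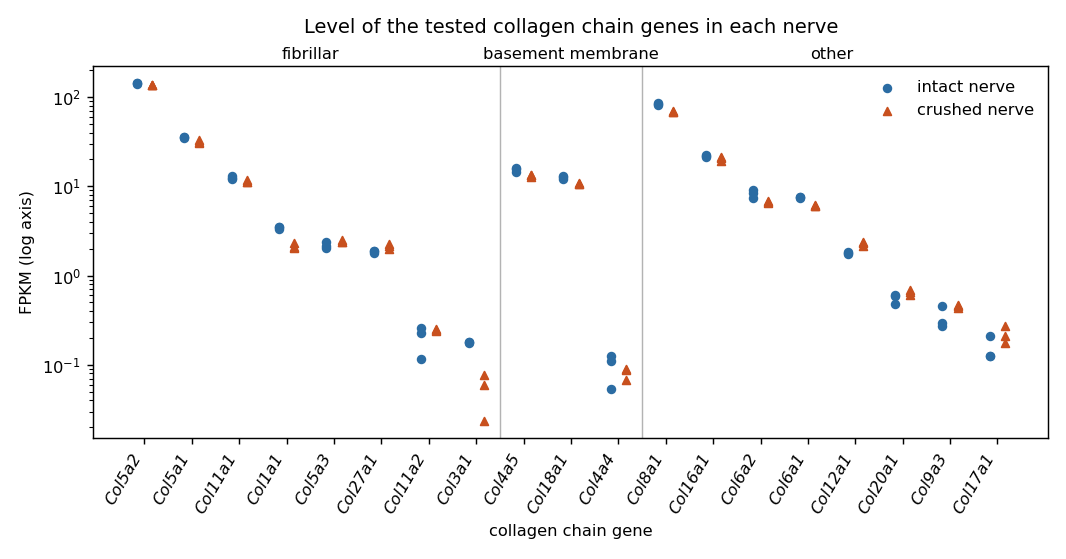
Points give the FPKM (log axis) of each of the 19 tested collagen chain genes in the 3 intact and 3 crushed nerves, grouped as fibrillar, basement membrane and other chains. Col5a2, at 135 to 145 FPKM, lies far above Col3a1, its neighbour on the chromosome, at 0.0233 to 0.182 FPKM.

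Several chains that nerve tissue is known to contain had no reads. The 10 rows at 0 in every nerve held 9 symbols: Col1a2, Col4a1, Col4a2, Col4a6, Col6a4, Col13a1, Col15a1, Col23a1 in both rows and Col26a1. Col1a2, the partner of Col1a1 in type I collagen, had 0 counts in all 6 nerves beside 293 to 537 counts for Col1a1. Col4a1 and Col4a2, the most widespread type IV chains, had 0 counts beside 2145 to 2728 for Col4a5, whose partner in some basement membranes, Col4a6, was at 0. Col6a3 had 1 count in intact nerve 3 and 0 elsewhere, while Col6a1 had 464 to 620 counts and Col6a2 623 to 852. A count of 0 allows a level of up to 0.11 to 0.121 normalized CPM in a nerve, which covers counting error only and not how reads were assigned to the deposited gene models.

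A further 15 genes had counts but were too low for the test, and 11 of them never exceeded 3 counts in a nerve. The highest was Col7a1, the chain of anchoring fibrils, with 22, 5 and 16 counts in the intact and 9, 10 and 4 in the crushed nerves. Col14a1, a fibril-associated chain, had 2 to 9 counts, Col22a1 2 to 7 and Col25a1 4 counts in crushed nerve 3 alone. Col2a1, the cartilage chain, Col6a5, Col6a6, Col8a2, Col9a1, Col9a2, Col10a1, Col19a1, Col24a1 and Col28a1 stayed between 0 and 2 counts. That left 19 collagen chain genes (43.2% of the 44, against 40% of all genes) which passed edgeR's expression filter and were compared with the other genes in 1 model.

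Some chains that lie next to each other in the genome differed widely in level, and others were alike. In the deposited coordinates, Col3a1 (9: 52023295 to 52059217) and Col5a2 (9: 52092511 to 52238564) are 33.3 kb apart and had mean levels of 0.117 and 139.5 FPKM. Col4a5 (X: 112769645 to 112983685) had 14.2 FPKM and Col4a6, 296 kb away, was at 0. Col6a1 (20: 12658065 to 12675561) and Col6a2 (20: 12773427 to 12801180), 97.9 kb apart, were close in level, and Col18a1 (20: 12225202 to 12332858) is 325 kb from Col6a1 on the same chromosome. The coordinates are those of the deposited table, for which the submitters' processing notes name Rnor_6.0.

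The comparison of crushed with intact nerves asks how the transcripts of the collagens differ after injury. Most collagen chain genes that changed were lower in the crushed nerves, and by modest amounts. In the quasi-likelihood test of edgeR, with p-values adjusted by the Benjamini-Hochberg method over all 12393 genes tested, 7 of the 19 fell (Col1a1, Col3a1, Col4a5, Col5a1, Col6a1, Col8a1 and Col18a1) and 1 rose (Col12a1) at an adjusted p under 0.05. Over all genes tested, 1.65% were lower and 1.47% higher by that rule. At an unadjusted p under 0.05, 9 collagen chain genes were lower and 1 higher, against 9.5% and 6.71% of all genes tested. Their median log2 fold change was -0.14, with 12 below 0 and 7 above, against -0.0017 for all genes. In 10 chains every crushed nerve was below every intact nerve, and in 2 every crushed nerve was above, against 12.2% and 10.8% of all genes tested. At the limits of the study, which ask for a log2 change beyond 1 in size and a p under 0.001, Col3a1 alone was called, and 0.282% of all genes were. DESeq2, limma and the replicate block called 0 chains at these limits. Col3a1 passed the expression filter only through its counts in the intact nerves, so its place in either count is no separate support for a fall. In bulk tissue, fewer cells of a type and less RNA per cell cannot be told apart.

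The number of chains that fell was smaller when any 1 nerve was left out, which also leaves the test fewer degrees of freedom. It was 2 without intact nerve 2, without crushed nerve 2 or without crushed nerve 3, and 3 without crushed nerve 1, against 5 without intact nerve 1 or 3. Col12a1 did not pass when any 1 of the 6 nerves was left out, so that the count of chains that rose was then 0. Col1a1 and Col8a1 fell in each of these 6 fits.

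**Figure D3:**
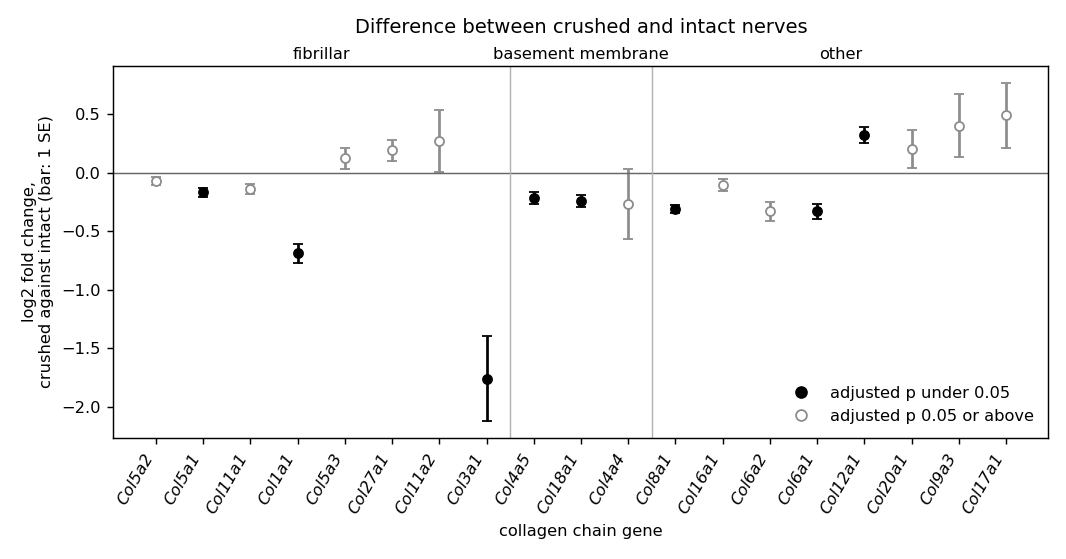
Points give the log2 fold change of crushed against intact nerves for the 19 tested chains, with bars of 1 SE, filled where the adjusted p was under 0.05. Col3a1 at -1.76 and Col1a1 at -0.69 lie lowest, and Col12a1 at 0.32 is the only filled point above 0.

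Some marker genes of other cell types moved as well. The summed level of the fibroblast markers, of which 5 of 9 had more than 3 counts in every nerve, was 958 to 1002 normalized CPM in the intact and 1369 to 1423 in the crushed nerves. That sum was mostly Fbn1, the microfibril gene fibrillin, which rose by 0.63 on the log2 scale (edgeR, adjusted p = 4.06e-06), while Pdgfrb, which marks pericytes too, fell by 0.77 (adjusted p = 0.00106, edgeR). The pericyte and smooth muscle list, with 3 of 5 genes above 3 counts in every nerve, lay at 183 to 199 and 149.7 to 152, with Cspg4 lower by 0.35 on the log2 scale (adjusted p = 0.00103, edgeR), Rgs5 at 0 and Acta2 at 0 to 3 counts. The perineurial list (3 of 3) lay at 432 to 516 and 435 to 457, the Schwann list (4 of 10) at 43.0 to 44.5 and 41.2 to 41.7, the endothelial list (3 of 6) at 4.66 to 5.53 and 3.77 to 5.08, and the macrophage list (2 of 8) at 1.93 to 3.11 and 2.42 to 3.15. Of the Schwann markers, the receptor gene Erbb3 fell by 0.59 on the log2 scale (adjusted p = 0.0222, edgeR). The part of these shifts in the collagen values was not tested.

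Of the fibrillar chains, 8 of 11 were tested, and 3 of these fell while 0 rose. At an unadjusted p under 0.05, edgeR gave 4 lower and 0 higher. Of all genes tested, 1.65% were lower and 1.47% higher at the adjusted threshold, and 9.5% and 6.71% at the unadjusted one. DESeq2 and limma called no fibrillar chain higher. On log2(FPKM + 0.1), limma gave an adjusted p of 0.0129 for Col1a1, 0.0838 for Col3a1 and 0.123 for Col5a1. The median log2 fold change of the 8 tested fibrillar chains was -0.11. Col1a1 (10: 82745801 to 82762789) had 19.5, 20.4 and 20.3 normalized CPM in the intact and 13.3, 12.2 and 11.7 in the crushed nerves. The crushed nerves were all below the intact nerves, with a clear gap. The mean fell from 20.0 ± 0.455 to 12.4 ± 0.818 (SD, n = 3 each), a log2 fold change of -0.69 (SE 0.0788, adjusted p = 0.000662, edgeR) or -38.1%.

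Col3a1, the chain of type III collagen, which is common in soft, distensible tissue, was counted 22, 23 and 21 times in intact nerves against 10, 3 and 7 times in crushed nerves. The groups did not overlap, but the counts are few, and the crushed nerves did not exceed the filter's minimum of 10 counts, so the gene was tested because of its level in the intact nerves. Its log2 fold change was -1.76 (SE 0.364, adjusted p = 0.0268, edgeR), from 0.863 ± 0.0132 to 0.252 ± 0.13 normalized CPM. The adjusted p was 0.0553, 0.0798 and 0.0628 without intact nerve 1, 2 or 3, 0.104 without crushed nerve 2, where the log2 fold change was -1.4, and 0.092 without crushed nerve 3. DESeq2 gave an unadjusted p of 0.00233 and no adjusted p.

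The type V chains differed among themselves. Col5a1 (3: 6430201 to 6578882) had 236, 230.4 and 236 normalized CPM in the intact and 215, 208 and 203 in the crushed nerves, with no overlap. It fell by 0.17 on the log2 scale (SE 0.0387, adjusted p = 0.0479, edgeR), a difference of -10.8%. When any 1 of the 6 nerves was left out, its adjusted p lay above the threshold, at 0.0515 without intact nerve 1 and at up to 0.206 without crushed nerve 2. Col5a2 had 654, 627 and 644 normalized CPM in the intact and 602, 613 and 614 in the crushed nerves, again with no overlap, and a log2 fold change of -0.07 (SE 0.0356, adjusted p = 0.342). Col5a3, a minor type V chain described in peripheral nerve, had 13.1, 12.3 and 14.4 in the intact and 14.1, 14.4 and 14.8 in the crushed nerves, which overlapped, and a log2 fold change of 0.12 (SE 0.0856, adjusted p = 0.514).

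The balance of type V chains was followed as FPKM ratios within each nerve. Col5a2 over Col5a1 was 4.1, 4.02 and 4.03 in the intact and 4.15, 4.35 and 4.46 in the crushed nerves, all crushed nerves being higher. Col5a1 over Col5a3 was 16.5, 17.1 and 15 in the intact and 13.9, 13.2 and 12.5 in the crushed nerves, all crushed nerves being lower. For both ratios the two-sided exact permutation p was 0.1, the smallest that 3 against 3 nerves allow, and 0.15 after adjustment over the 3 ratios computed, so neither can pass 0.05 in this design.

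Of the other fibrillar chains, Col11a1, which copolymerizes in fibrils with type II and type V chains, had 93.2, 96.9 and 99.6 normalized CPM in the intact and 89.6, 86.6 and 85.9 in the crushed nerves. The groups did not overlap, and the log2 fold change was -0.14 (SE 0.0453, adjusted p = 0.135). Col27a1, a fibrillar chain of cartilage, had 267, 264 and 260 counts in the intact against 297, 327 and 314 in the crushed nerves, all crushed nerves being higher, also in normalized CPM, with a log2 fold change of 0.19 (SE 0.0895, adjusted p = 0.33). Col11a2 had 21 to 44 counts in the intact and 40 to 46 in the crushed nerves, which overlapped, and its adjusted p was 0.661.

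Of the basement membrane chains, 3 of 7 were tested. Col4a5 and Col18a1 fell and 0 rose, and at an unadjusted p under 0.05 edgeR also gave 2 lower and 0 higher. DESeq2 called both lower and 0 higher, whereas limma on log2(FPKM + 0.1) called 0 in either direction, with adjusted p-values of 0.137 for Col4a5 and 0.097 for Col18a1. Of all genes tested, edgeR gave 1.65% lower and 1.47% higher at the adjusted threshold, and 9.5% and 6.71% at the unadjusted one. Col4a5, a type IV chain of specialised basement membranes, had 94.0, 103 and 101 normalized CPM in the intact and 82.6, 87.3 and 85.6 in the crushed nerves. The groups did not overlap, and the mean fell from 99.4 ± 4.85 to 85.2 ± 2.36 (SD, n = 3 each), a log2 fold change of -0.22 (SE 0.0496, adjusted p = 0.0366, edgeR). Without intact nerve 2 or 3, or crushed nerve 1, 2 or 3, its adjusted p was 0.128, 0.0944, 0.181, 0.102 and 0.12.

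Col18a1, the chain whose end fragment is endostatin, had 65.3, 63.9 and 60.1 normalized CPM in the intact and 52.8, 53.4 and 53.8 in the crushed nerves. The crushed nerves lay close together and below all intact nerves. Its log2 fold change was -0.24 (SE 0.0505, adjusted p = 0.0276, edgeR), from 63.1 ± 2.65 to 53.3 ± 0.5. The adjusted p was 0.096 without intact nerve 2 and 0.131, 0.113 and 0.0797 without crushed nerve 1, 2 or 3. Col4a4, a chain of the kidney filter and other specialised membranes, had 38, 45 and 18 counts in the intact and 32, 25 and 30 in the crushed nerves, which overlapped, and a log2 fold change of -0.27 (SE 0.299, adjusted p = 0.716).

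Of the other collagens, 8 of 26 were tested. Col6a1 and Col8a1 fell and Col12a1 rose at an adjusted p under 0.05, where 1.65% of all genes tested were lower and 1.47% higher. Col8a1 (11: 44877859 to 45007891) had 357, 368 and 368 normalized CPM in the intact and 296, 293 and 292 in the crushed nerves. Both groups were tight and far apart relative to their spread, and the mean fell from 364 ± 6.3 to 294 ± 2.46 (SD, n = 3 each), a log2 fold change of -0.31 (SE 0.0362, adjusted p = 0.00078, edgeR) or -19.4%.

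The type VI chains, which form beaded filaments near cell surfaces, had log2 fold changes of like size. Col6a1 had 24.1, 23.5 and 23.3 normalized CPM in the intact and 18.9, 19.0 and 18.5 in the crushed nerves, with no overlap. It fell by 0.33 on the log2 scale (SE 0.0644, adjusted p = 0.0204, edgeR), and its adjusted p was 0.0643 without intact nerve 2 and 0.0905, 0.0875 and 0.0886 without crushed nerve 1, 2 or 3. Col6a2 had 33.7, 31.2 and 27.2 in the intact and 24.4, 24.0 and 24.9 in the crushed nerves, again with no overlap, and intact nerve 3 stood closest to the crushed nerves. Its log2 fold change was also -0.33 (SE 0.0804), but its adjusted p was 0.055 by edgeR, 0.0197 by DESeq2 and 0.013 without intact nerve 3. The FPKM ratio of Col6a2 to Col6a1 was 1.18, 1.12 and 0.985 in the intact and 1.09, 1.06 and 1.13 in the crushed nerves, which overlapped (two-sided exact permutation p = 1.0).

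Col12a1 (8: 87040799 to 87158368), a fibril-associated chain of tendon and other load-bearing tissue, went the other way. It had 18.7, 19.3 and 19.6 normalized CPM in the intact and 22.5, 24.9 and 24.6 in the crushed nerves. All crushed nerves were higher, and the mean rose from 19.2 ± 0.43 to 24.0 ± 1.33 (SD, n = 3 each), a log2 fold change of 0.32 (SE 0.0702, adjusted p = 0.0341, edgeR) or 25%. Its adjusted p lay between 0.0553, without intact nerve 1, and 0.165, without crushed nerve 2, in the 6 fits that left out 1 nerve. The other fibril-associated chains did not pass, with log2 fold changes of -0.11 for Col16a1 (SE 0.0511, adjusted p = 0.321), 0.20 for Col20a1 (SE 0.159, adjusted p = 0.587) and 0.40 for Col9a3 (SE 0.268, adjusted p = 0.501). Col17a1, a transmembrane chain of epithelial hemidesmosomes, had 19, 33 and 18 counts in the intact and 43, 28 and 31 in the crushed nerves, which overlapped (log2 fold change 0.49, SE 0.278, adjusted p = 0.427).

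**Figure D4:**
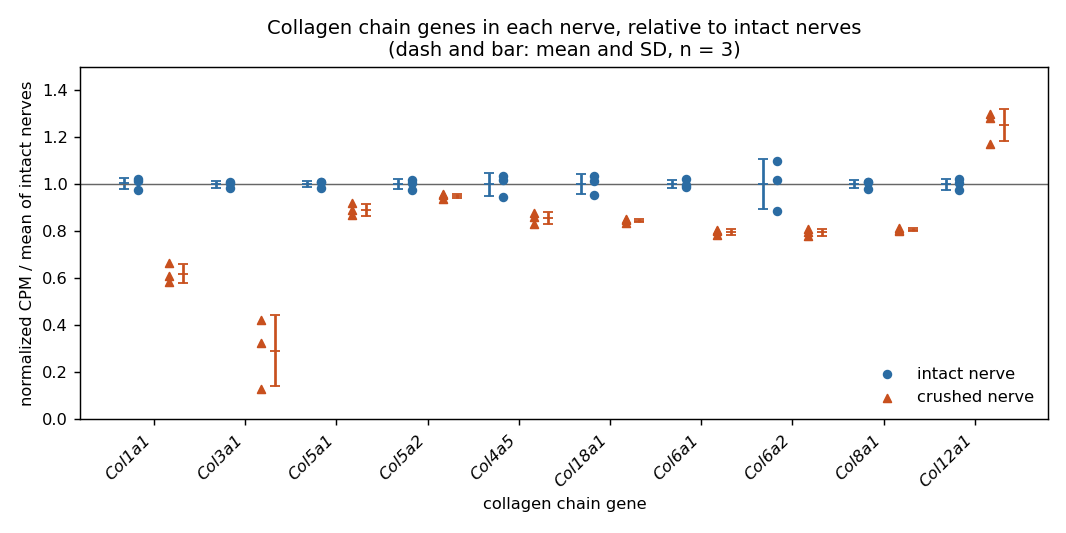
Points give the normalized CPM of 10 chains in each nerve divided by the mean of the intact nerves, with the mean and SD over 3 nerves, on an axis that starts at 0. The crushed nerves of Col12a1 lie above all intact nerves, and those of every other chain shown lie below. The 10 chains are a selection from the 19 tested. Among those 19, all crushed nerves were lower in 10 and higher in 2, against 12.2% and 10.8% of all genes tested. Col27a1, the other chain with all crushed nerves higher, is not shown.

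All collagen chains together took a smaller share of the counts in the crushed nerves. The share was 0.173%, 0.172% and 0.174% of all gene counts in the intact and 0.157%, 0.157% and 0.156% in the crushed nerves, with no overlap, and the difference of the means was -0.0162 percentage points. The fibrillar chains held 0.101% ± 0.00171 in the intact and 0.0951% ± 0.000175 in the crushed nerves, the basement membrane chains 0.0163% ± 0.000462 and 0.014% ± 0.000254, and the others 0.0555% ± 0.00032 and 0.0476% ± 0.000673 (SD, n = 3 each). The lower share of the others does not mean that most of them fell. Of the 8 tested, 4 had a log2 fold change above 0 and 4 below, with a median of 0.04. Within the collagen FPKM, the share of Col5a2 was 40.0% to 41.2% in the intact and 42.8% to 43.8% in the crushed nerves, while that of Col8a1 was 23.3% to 24.3% and 21.4% to 21.8%.

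A collagen chain is hydroxylated and glycosylated, folded with the help of chaperones, exported, trimmed of its end pieces and cross-linked outside the cell, where receptors and partner proteins bind it. Of 55 genes listed for these steps, 53 were in the table, 41 were tested and 6 were at 0 in every nerve. By edgeR, 3 rose (Lox, Tll1 and Itga2) and 3 fell (Fn1, Loxl3 and Mrc2) at an adjusted p under 0.05, their median log2 fold change being 0.03, with 11 higher and 9 lower at an unadjusted p under 0.05. Of all genes tested, 1.47% were higher and 1.65% lower at the adjusted threshold, and 6.71% were higher and 9.5% lower at the unadjusted one.

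The enzymes and chaperones that act inside the cell did not pass the test, and most genes did not either. Over all genes tested, edgeR gave 1.47% higher and 1.65% lower at an adjusted p under 0.05. At an unadjusted p under 0.05 it gave 6.71% higher and 9.5% lower. Of 13 tested genes of hydroxylation and glycosylation, 0 passed in either direction by edgeR, with 3 higher and 0 lower at an unadjusted p under 0.05, and 0 by DESeq2 or limma. Of 7 tested genes of folding and export, 0 passed by edgeR, with 2 higher and 1 lower at an unadjusted p under 0.05, and again 0 by DESeq2 or limma. Serpinh1, the collagen chaperone HSP47, had 507 ± 15.1 and 519.8 ± 37.7 normalized CPM in the intact and crushed nerves (log2 fold change 0.04, adjusted p = 0.783). P4ha1 and P4ha2, catalytic subunits of the prolyl hydroxylases, had log2 fold changes of -0.01 (adjusted p = 0.919) and 0.13 (adjusted p = 0.231), and Plod2, a lysyl hydroxylase, 0.13 (adjusted p = 0.239). P4ha3, the remaining catalytic subunit, which is named here after its values were seen, had 10.2 ± 0.834 and 13.4 ± 1.27 normalized CPM (SD, n = 3 each), all crushed nerves being higher, and a log2 fold change of 0.38 (SE 0.102, adjusted p = 0.0824, edgeR). Other listed genes lay nearer the threshold without passing in edgeR. Their log2 fold changes were 0.17 for Itgb1 (adjusted p = 0.0513), -0.34 for Loxl1 (0.0553), -0.23 for Sparc (0.0777) and 0.29 for Loxl4 (0.0822). DESeq2 gave adjusted p-values of 0.00687 for Itgb1, 0.00174 for Loxl1, 0.0138 for Sparc and 0.0653 for Loxl4.

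Outside the cell the genes went in both directions. Lox, the lysyl oxidase that starts the cross-linking of collagen and elastin, had 135, 139.9 and 137 normalized CPM in the intact and 168, 171 and 176 in the crushed nerves. All crushed nerves were higher, and Lox rose by 0.32 on the log2 scale (SE 0.0395, adjusted p = 0.00106, edgeR). Loxl3, of the same family, had 412 ± 8.36 in the intact and 358 ± 8.1 in the crushed nerves (SD, n = 3 each) and fell by 0.21 (adjusted p = 0.015, edgeR), with adjusted p-values of 0.068 without intact nerve 2 and 0.0873, 0.0603 and 0.0732 without crushed nerve 1, 2 or 3. Among the enzymes that trim the end pieces, Tll1 rose by 0.50 (SE 0.107, adjusted p = 0.0304, edgeR), and its adjusted p was between 0.0591, without crushed nerve 2, and 0.115, without crushed nerve 3, when any 1 nerve was left out. For Bmp1, the main procollagen C-proteinase, the log2 fold change was 0.08 (adjusted p = 0.597).

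Of the partners and receptors, Fn1, the fibronectin on which collagen fibrils are laid down, had 33744, 32246 and 29812 counts in the intact and 22738, 23047 and 20652 in the crushed nerves. The crushed nerves were all well below the intact nerves, and Fn1 fell by 0.59 on the log2 scale (SE 0.0439, adjusted p = 3.52e-05, edgeR). Itga2, the collagen-binding integrin subunit, had 26, 22 and 17 counts in the intact and 55, 40 and 54 in the crushed nerves, all crushed nerves being higher. It rose by 1.14 (SE 0.239, adjusted p = 0.029, edgeR), and its adjusted p was 0.0894 and 0.0868 without intact nerve 2 or 3 and 0.122 and 0.124 without crushed nerve 1 or 3. Mrc2, a receptor that takes up collagen fragments, fell by 0.23 (adjusted p = 0.0188, edgeR), with adjusted p-values of 0.0707 without intact nerve 2 and 0.0873, 0.0505 and 0.0833 without crushed nerve 1, 2 or 3. For Ddr2, a receptor kinase for fibrillar collagen, the log2 fold change was -0.19 (adjusted p = 0.113).

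**Figure D5:**
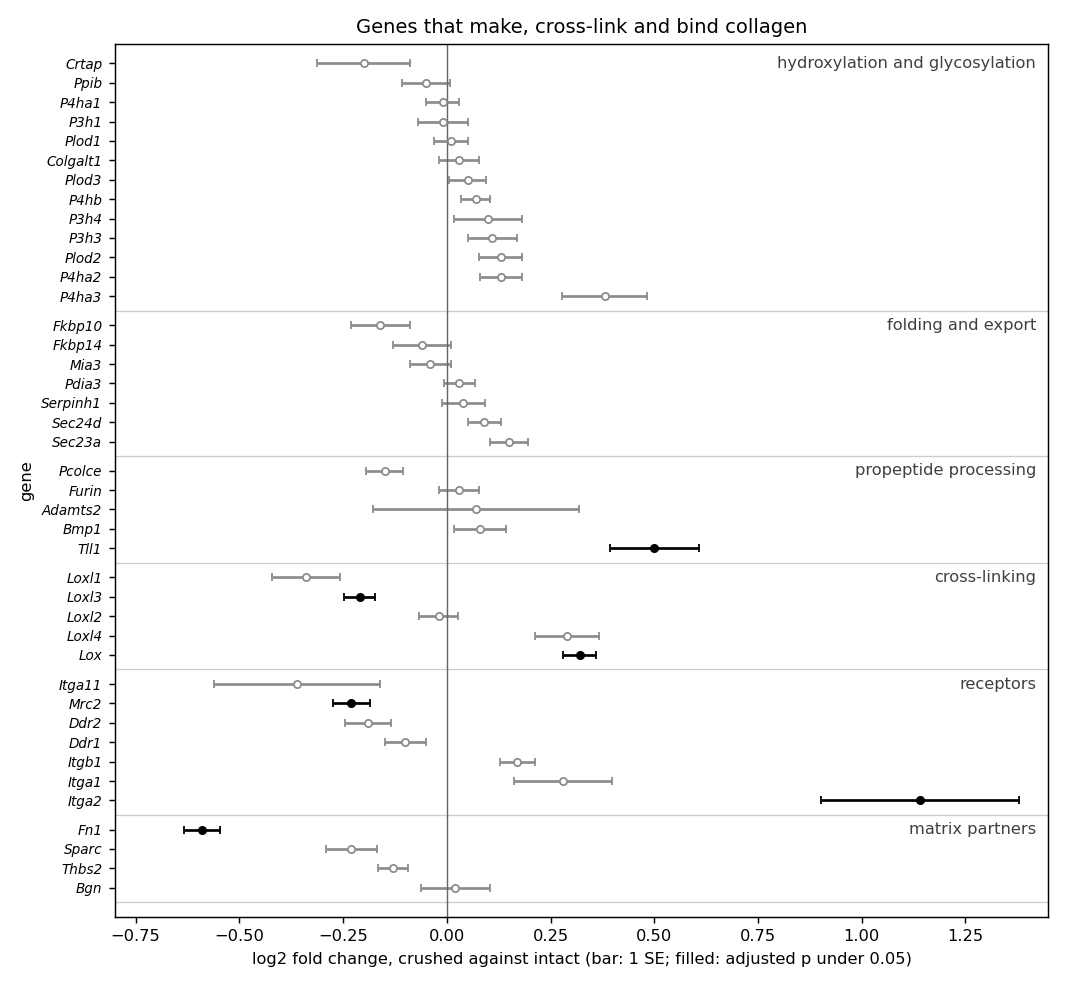
Points give the log2 fold change of crushed against intact nerves for the tested genes that make, cross-link and bind collagen, with bars of 1 SE, filled where the adjusted p was under 0.05. Itga2 at 1.14 lies farthest above 0 and Fn1 at -0.59 farthest below.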

How the data were processed

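RNA-seq of 3 crushed sciatic nerves and 3 intact contralateral nerves was analysed. The authors deposited 1 table with raw counts per Ensembl gene and nerve and with FPKM values, which match those counts divided by a fixed length per gene and by the total on genes. The submitters' processing notes name HISAT2, StringTie 1.3.0 and Rnor_6.0, and how shared reads were treated is not given in the sources used here. All 12 columns of values were used, matched to nerves by sample title, and 0 others were present.

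The 24844371 to 27139360 counts per nerve were tested in R 4.3.3 by the quasi-likelihood method of edgeR 4.0.16 (with limma 3.58.1), using TMM factors, edgeR's expression filter (minimum count 10), 6 nerves and no replicate block, with Benjamini-Hochberg adjustment over 12393 genes. A level floor of 3 counts covers counting error only. Replicates of a group differed by more than sampling noise (chi-square per degree of freedom 3.38 to 12.3), so none were merged, and p-values measure the spread between these nerves. Ratios were compared with exact permutation tests. For the limits of the study, which do not name the kind of p, the unadjusted p served.

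The members and lists were chosen with earlier results of these data known. Named were all tested collagen chain genes, and of the collagen-making list those with an adjusted p under 0.05 and 6 chosen for their role. P4ha3, Itgb1, Loxl1, Sparc and Loxl4 were named after their values were seen. Alternatives were DESeq2 (1.42.0), RLE factors, no filter (at least 1 count), limma on log2(FPKM + 0.1) and log2(FPKM + 1), the replicate block, and each nerve left out. The script was tested on simulated data. For the Schwann cell list, 1 gene is not reported here and was left out of its values.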

Additional observations from a re-analysis of the deposited data

How the results depend on the processing

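The table of 31 single genes under 12 alternative settings kept direction and side of the threshold in 287 cases, was past the threshold in the main test but not in the alternative in 75, the opposite in 3 and changed sign in 6. Each change of sign was in a gene far from the threshold: Col11a2 (-0.01 without intact replicate 2, range -0.01 to 0.5 with 1 nerve left out) and P4ha1 (0.01 with limma on either pseudocount, without intact replicate 1 or without crushed replicate 1, and 0 without intact replicate 2, range -0.03 to 0.01 with 1 nerve left out). Col1a1 and Col8a1 passed in all 12 settings, Col6a1 in 6, Col18a1 and Col4a5 in 5 each, Col12a1 in 3, Col5a1 in 1, and Col3a1 in 3 of 11.

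The 7 chains that fell and the 1 that rose became 2 and 0 with limma on log2(FPKM + 0.1) or log2(FPKM + 1), and the fits that left out 1 nerve gave 2 to 5 and 0 to 0. The 1 chain past the study's limits became 0 with DESeq2 and with limma at either pseudocount, and 0 to 1 without 1 nerve. With fewer nerves the test has fewer degrees of freedom, and for limma the cause was not tested. As a share of the summed FPKM in place of counts, the difference was -0.00633 percentage points for all collagen chains, -0.00178 for the fibrillar and -0.000758 for the basement membrane chains, in each case still lower in the crushed nerves.

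With the replicate block, 4 chains fell (Col1a1, Col4a5, Col6a1 and Col8a1), 0 rose and 0 passed the study's limits. Of the collagen-making genes, 1 rose (Lox) and 5 fell (Fn1, Loxl1, Loxl3, Mrc2 and Sparc). Tll1 and Itga2, which rose in the main test, had adjusted p-values of 0.0582 and 0.0519 with the block (edgeR). Loxl1 and Sparc, which did not pass in the main test, had 0.0215 and 0.0333. The share of all genes called with the block is not given here. The correlations of same-numbered deviations were -0.0148, 0.00586 and 0.0756, and 2 of 6 nerves correlated best with their own number. With so few nerves per group, these values cannot tell whether a crushed and an intact nerve with the same number share a rat.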
